A study of Mus musculus with 6 samples.

Results

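Long non-coding transcripts that host small nucleolar RNAs (snoRNAs) were examined in B16F10 mouse melanoma cells depleted of OSGEP. The 9 hosts were Gas5, Snhg1, Snhg3, Snhg5, Snhg6, Snhg8, Snhg12, Snhg15 and Zfas1. They were chosen by name, as spliced hosts that are normally degraded by nonsense-mediated decay, and each matched 1 row of the 55487 genes in the count table. Of these 9 hosts, 9 passed the filter on low counts, among 12669 genes tested. B16F10 cells had been infected with a scramble control shRNA (shCtr, n = 3) or with an shRNA against OSGEP (shOSGEP, n = 3), and RNA of independent infections was sequenced after polyA selection. Both groups carry an integrated shRNA vector, the labels name the control cells as wild type and the depleted cells as an OSGEP knockdown, and 1 hairpin, numbered 2 by the study, represents the depletion. Within the KEOPS complex, OSGEP catalyses t6A, a modification beside the anticodon of tRNAs that read codons starting with A (ANN codons). The comparison asks whether the hosts, whose level depends on translation, differ in level when this modification is impaired.

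A snoRNA host is spliced, its snoRNAs are released from the introns, and the joined exons leave the nucleus as a transcript with short reading frames. Ribosomes that stop at an early stop codon, upstream of an exon junction, mark such a transcript for nonsense-mediated decay (NMD), in which the helicase UPF1, the kinase SMG1 and the endonuclease SMG6 take part. Slower translation spares the spliced host from this decay, which is how Gas5 (growth arrest specific 5) was first noticed in arrested cells. Many hosts also start with a 5′ terminal oligopyrimidine tract (TOP), a C followed by pyrimidines, as ribosomal protein mRNAs do, and mTOR activity controls the translation of TOP mRNAs.

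The start sites are shown first because a TOP start is the feature that places a host among the growth-regulated transcripts. Each window spans 15 bases before and 15 bases from an annotated start (RefSeq, GRCm38.p6), written 5′ to 3′ on the strand of the gene. Capitals mark a tract of at least 5 pyrimidines that begins with C within 10 bases of the start. RefSeq windows were found for 8 of the 9 hosts, with 2 starts for Gas5.
Gas5 (chr1:161035151-161035180, plus strand): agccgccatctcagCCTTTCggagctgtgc
Snhg12 (chr4:132308663-132308692, plus strand): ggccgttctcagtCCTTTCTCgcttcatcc
Snhg8 (chr3:123508322-123508351, minus strand): gcaccgttcagaagtCTCTTTggctgcgat
Snhg3 (chr4:132353672-132353701, minus strand): tagtcgaccacgcctgaCTTCCgggcgtta
Snhg5 (chr9:88522883-88522912, minus strand): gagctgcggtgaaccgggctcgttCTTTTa
Snhg1 (chr19:8723472-8723501, plus strand): gttgttcttgtcggcctcatttttccttgt
Snhg15 (chr11:6528746-6528775, minus strand): cgctgctgtgaccgtaactttaagcacacg
Zfas1 (chr2:167062919-167062948, plus strand): ttgactgcgccccgggcggccgcaggtctc
The tract of Gas5 begins 1 base before the annotated start, that of Snhg12 2 bases before it and that of Snhg8 at the start itself. In Snhg3 and Snhg5 it begins 2 and 9 bases after the start. A tract stood in a window of 5 of the 8 hosts (62.5%), against 33.3% of all 27025 genes with a window and 59.6% of 57 cytosolic ribosomal protein genes. The windows of Snhg1, Snhg15 and Zfas1 and of the upstream start of Gas5 held none. The search read the gene's own strand, and a match is a description of letters.

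The GENCODE M21 transcripts of the same build gave Snhg6 and Zfas1 a start with such a tract. Each of the following sequences is the first 20 bases of 1 transcript, with the tract in capitals.
Snhg6-203: CTTTCTCggcagcgccgtag
Zfas1-202: CCTTTCgttccggcggctcc
Among the annotated transcripts, 5 of 25 of Gas5, 3 of 10 of Snhg12, 1 of 6 of Snhg5, 1 of 5 each of Snhg3, Snhg6 and Zfas1, and 1 of 3 of Snhg8 began with a C and at least 4 more pyrimidines. None of the 18 transcripts of Snhg1 or the 4 of Snhg15 did. Over all 141767 annotated transcripts the share was 2.02%.

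The exons of the hosts carry short reading frames. In the transcript with the most exons, the first frame from an ATG to a stop held between 1 codon (Snhg8, where the stop follows the start directly) and 54 codons (Snhg12). The shortest such frame with more than 1 codon was that of Zfas1, with 17 codons, and the first frame of Gas5 had 23. Capitals mark the start and stop codons.
Zfas1-205: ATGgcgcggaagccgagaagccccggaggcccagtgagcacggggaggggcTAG
Gas5-224: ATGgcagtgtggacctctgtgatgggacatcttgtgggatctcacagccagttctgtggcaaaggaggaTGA
In Gas5-224, 7 of 11 exon junctions lay at least 50 bases downstream of this stop codon, which is the arrangement that NMD reads. In Zfas1-205 it was 4 of 4, in Snhg15-204 3 of 3, in Snhg12-206 3 of 4 and in Snhg1-211 5 of 9. After its first frame, each of the 9 hosts had at least 1 such junction. So did 89.3% of 5383 other non-coding genes with a spliced transcript of at least 3 exons. The junctions therefore do not set the hosts apart. Counted from the longest frame of the same transcripts, 0 such junctions were left in Snhg5 (66 codons), Snhg15 (59) and Zfas1 (79). The longest frame of every other host had at least 1. ANN codons, the start codon included, made up 5 of the 23 codons of the first frame in Gas5, 7 of 17 in Zfas1, 8 of 35 in Snhg15, 10 of 42 in Snhg3, 12 of 54 in Snhg12, 13 of 40 in Snhg1, 13 of 36 in Snhg5 and 13 of 53 in Snhg6. The frame of Snhg8 holds the start codon alone. The frames are read from the annotation, and no ribosome footprint was used for them.

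Depth ranged from 18915587 to 29487384 counts per library. Osgep measured 20.6, 58.6 and 21.8 CPM (library-scaled counts after TMM) in shCtr replicates 1, 2 and 3 and 4.28, 0.543 and 5.52 CPM in shOSGEP, below every control. Its Log2FC was -3.29 (SE 0.876, unadjusted p = 0.00524, and adjusted p = 1.00 after Benjamini-Hochberg correction in edgeR's quasi-likelihood fit). The 7 melanocyte lineage markers were detected in every library, whereas of 8 markers of leukocytes, endothelial cells and fibroblasts Ptprc, Cd3e and Cdh5 were at 0 counts throughout and Cd68 and Pdgfra alone passed the filter. The libraries numbered 2 stood apart. The TMM factor was 0.690 in shCtr replicate 2 and 1.04 to 1.14 elsewhere. Of the counts in the pair numbered 2, 13.2% and 12.9% fell on ribosomal protein genes, compared with 5.75% to 7.64% in the remaining libraries. All 7 melanocyte markers had a Log2FC below 0 (median -0.87), with a median log2 ratio of -2.55 within number 2 and of -0.07 and -0.12 within numbers 1 and 3. Within number 2, Pmel stood at 13300 CPM in shCtr and at 485 CPM in shOSGEP, and Mitf at 29.3 and 30.6 CPM. Host values are therefore also given without these libraries, and their part in the host levels was not tested. In bulk RNA, fewer cells with a transcript and less of it per cell cannot be told apart.

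None of the 9 hosts differed between shCtr and shOSGEP beyond the spread between libraries. By edgeR's quasi-likelihood test, 0 of the 9 hosts passed an adjusted p under 0.05, as did 0 (0%) of the 12669 genes tested, and 0 hosts had an unadjusted p under 0.05, against 2.02% of all genes. DESeq2 called 14 genes (0.113%), and 1403 (11.1%) passed in limma-voom when quality weights were combined with a replicate block, with 0 hosts among either. The study selected genes whose Log2FC was above 0.5 or below -0.5 at an unadjusted p under 0.05, a threshold passed by 0 hosts and by 2.02% of all genes (1.59% higher and 0.426% lower). The shCtr and shOSGEP values overlapped in each of the 9 hosts, while 6.36% of all genes had groups that did not overlap (3.49% higher and 2.87% lower in shOSGEP). All the same, the fitted Log2FC of all 9 hosts was above 0, from 0.04 for Snhg3 to 1.30 for Snhg6, with a median of 0.48. Over all tested genes the median was -0.03 and 47.3% were above 0. The 9 hosts were read from the same 6 libraries, so their shared sign is not 9 independent observations.

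The hosts varied between replicate numbers and, within number 2, between shCtr and shOSGEP. shCtr replicate 1 and shOSGEP replicate 1 were both rich in host transcripts, with 0.0482% and 0.0517% of all counts on the 9 hosts. The libraries numbered 3 were both poor, with 0.0112% and 0.0140%. In the libraries numbered 2 the shares were 0.00843% in shCtr and 0.0487% in shOSGEP. These are shares of unscaled counts, and the TMM factor of shCtr replicate 2 was 0.690, so the order of libraries can differ after scaling. Gas5 alone held 4399 of the 10344 host counts in shCtr replicate 1 and 476 of 2485 in shCtr replicate 2. Across all genes, deviations of same-numbered libraries from their group means correlated at 0.811, 0.557 and 0.196 for numbers 1, 2 and 3. shCtr replicate 3 correlated more with shOSGEP replicate 1 (0.491) than with shOSGEP replicate 3, so the pairing of number 3 is uncertain. Each ratio within a number is a comparison of 1 library with 1 library.

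**Figure D1:**
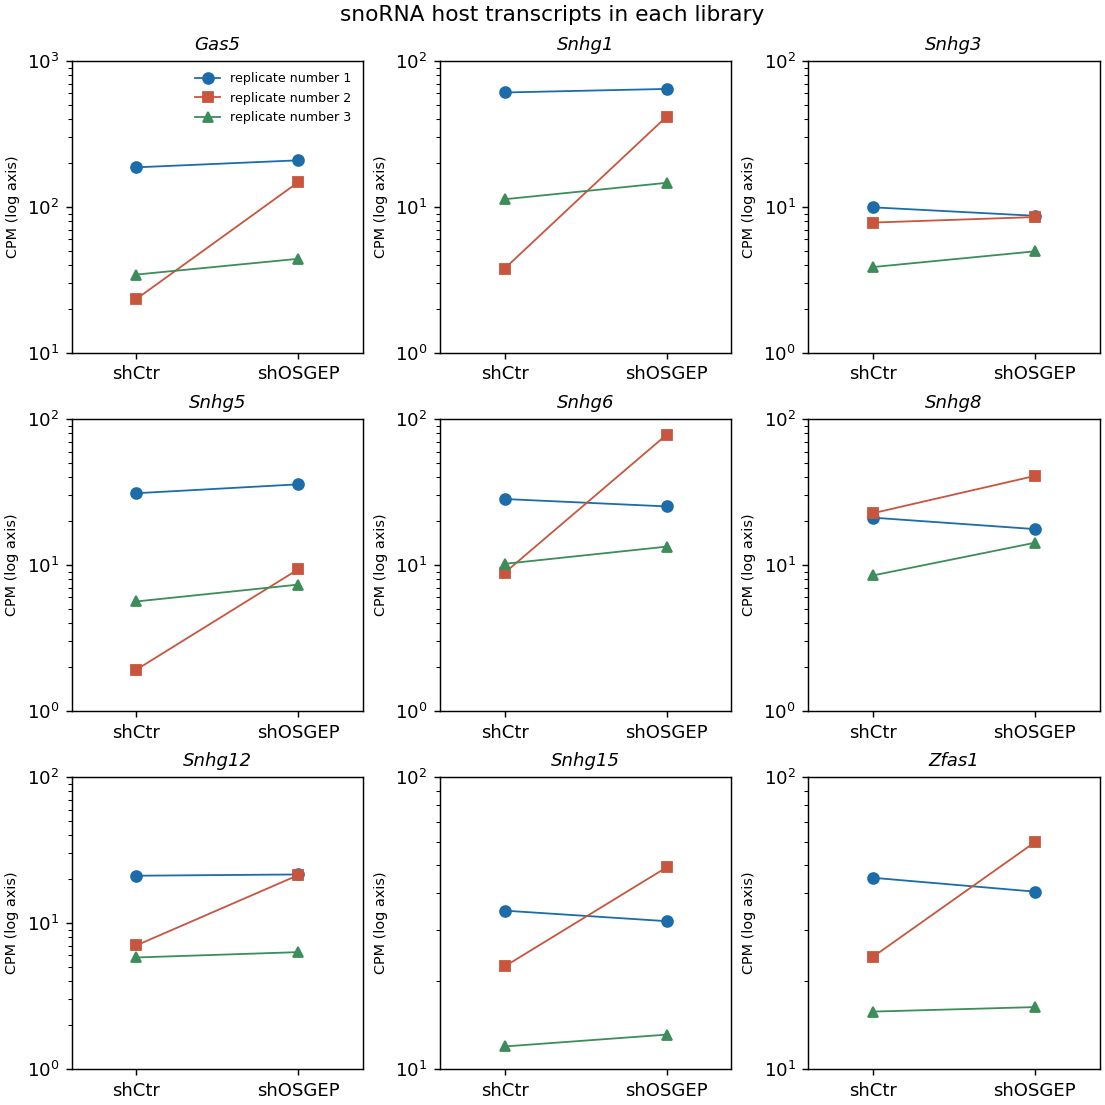
Level of each host in the 6 libraries, in CPM on a log axis, with a line joining the shCtr and the shOSGEP library of the same replicate number. The lines of number 1 are close to flat, those of number 3 tilt slightly upwards, and those of number 2 differ by between 0.13 (Snhg3) and 3.46 (Snhg1) on the log2 scale.

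Gas5, Snhg1, Snhg5, Snhg6 and Zfas1 hold C/D box snoRNAs, which guide ribose methylation of ribosomal RNA. Gas5 lies on chromosome 1 (161034422 to 161038539, plus strand, GRCm38) with 10 annotated snoRNA genes inside it. Its level was 187, 23.4 and 34.4 CPM in shCtr replicates 1, 2 and 3 and 209, 148 and 44.1 CPM in shOSGEP. In shCtr replicate 1 it was 7.99-fold above shCtr replicate 2, a wider gap than between the group means of 81.6 ± 91.4 and 134 ± 83.3 CPM (SD, n = 3). The Log2FC was 0.71 (SE 0.863, adjusted p = 1.00, edgeR), and the log2 ratio within numbers 1, 2 and 3 was 0.16, 2.66 and 0.36. The Log2FC was 0.19 without both libraries numbered 2.

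Snhg1 (chromosome 19, 8723475 to 8726443, plus strand), known as the host of U22, holds 8 snoRNA genes. Its 3 shCtr libraries held 60.9, 3.79 and 11.3 CPM and its 3 shOSGEP libraries 64.4, 41.6 and 14.6 CPM. It had the largest ratio of any host within number 2, at 3.46 on the log2 scale. Within numbers 1 and 3 the log2 ratio was 0.08 and 0.37. shCtr replicate 2 was the lowest library, with 77 counts, both libraries numbered 3 were low, and the pairs numbered 1 and 3 each lay close together. The Log2FC was 0.67 (SE 0.959), and 0.13 without both libraries numbered 2.

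Snhg5 (chromosome 9, 88521050 to 88522929, minus strand) holds Snord50a and Snord50b. Its CPM was 31.1, 1.92 and 5.63 in shCtr and 35.7, 9.34 and 7.34 in shOSGEP. The libraries numbered 1 stood above the rest in both groups, by 5.52-fold over number 3 in shCtr and by 4.87-fold in shOSGEP. The Log2FC of 0.44 (SE 1.02) had the largest standard error of the 9 hosts, and the log2 ratios within numbers 1, 2 and 3 were 0.20, 2.28 and 0.38. Without shOSGEP replicate 1 its Log2FC turned to -0.63, without shCtr replicate 2 to -0.08, and without both libraries numbered 2 it was 0.23.

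Snhg6 (chromosome 1, 9941959 to 9944118, minus strand) holds Snord87. It measured 28.3, 8.85 and 10.2 CPM in shCtr and 25.2, 78.1 and 13.4 CPM in shOSGEP. The high value came from 1 library, shOSGEP replicate 2, which stood 5.84-fold above shOSGEP replicate 3. In this fit Snhg6 had the largest Log2FC of the hosts, 1.30 (SE 0.755, unadjusted p = 0.122, adjusted p = 1.00, edgeR), whereas with the replicate block Snhg1 (1.19) stood above Snhg6 (1.05). Without both libraries numbered 2 its Log2FC was 0.00070.

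Zfas1 (chromosome 2, 167062934 to 167065862, plus strand), the antisense transcript at the start of Znfx1, holds 3 snoRNA genes, Snord12 among them. Its values were 45.2, 24.2 and 15.7 CPM in shCtr and 40.5, 59.9 and 16.3 CPM in shOSGEP. Within number 1 the shOSGEP library was slightly lower (log2 ratio -0.16), within number 3 nearly equal (0.05) and within number 2 higher (1.30). The Log2FC was 0.45 (SE 0.602), and -0.10 without both libraries numbered 2.

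Snhg3, Snhg8 and Snhg15 hold H/ACA box snoRNAs, which guide pseudouridylation, or in the case of the U17 snoRNAs of Snhg3 the cleavage of precursor ribosomal RNA. Snhg3 (chromosome 4, 132348014 to 132353686, minus strand), host of Snora73a and Snora73b, was the most even of the 9, with 9.94, 7.82 and 3.87 CPM in shCtr and 8.70, 8.53 and 4.96 CPM in shOSGEP. The group means were 7.21 ± 3.08 and 7.40 ± 2.11 CPM (SD, n = 3) and the Log2FC was 0.04 (SE 0.534), a sign that turned in 8 of 19 alternative settings (-0.018 without both libraries numbered 2). Snhg3 overlaps Rcc1, the nucleotide exchange factor of Ran, on the same strand, and Rcc1 was at 164 CPM in shCtr replicate 2 and at 56.0 CPM in shOSGEP replicate 2, so that the split of reads between the genes in these libraries is uncertain.

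Snhg8 (chromosome 3, 123507552 to 123508404, minus strand), host of Snora24, gave 21.1, 22.7 and 8.48 CPM in shCtr and 17.6, 40.8 and 14.2 CPM in shOSGEP. It was the host with the largest ratio within number 3, at 0.74 on the log2 scale, beside 0.85 within number 2 and -0.26 within number 1. Its Log2FC was 0.48 (SE 0.587), -0.11 without shOSGEP replicate 2 and 0.11 without both libraries numbered 2. Snhg15 (chromosome 11, 6525591 to 6528760, minus strand), host of Snora9 and known as a stress-responsive, short-lived transcript, measured 34.9, 22.5 and 11.9 CPM in shCtr, and 32.1, 49.1 and 13.1 CPM in shOSGEP. Its Log2FC was 0.44 (SE 0.606), with log2 ratios of -0.12, 1.13 and 0.13 within numbers 1, 2 and 3, and it was -0.021 without shOSGEP replicate 2 and -0.053 without both libraries numbered 2.

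Snhg12 (chromosome 4, 132308623 to 132311024, plus strand) holds both kinds, with Snora16a, Snora44, Snora61 and Snord99. It measured 21.1, 7.03 and 5.81 CPM in shCtr and 21.5, 21.3 and 6.32 CPM in shOSGEP. The pairs numbered 1 and 3 were nearly equal (log2 ratios of 0.03 and 0.12), and the pair numbered 2 differed by 1.60. The Log2FC was 0.53 (SE 0.688), and 0.044 without both libraries numbered 2.

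The exact permutation test of mean log2 CPM gave two-sided p-values of 0.3 to 0.8 for the 9 hosts, where 3 libraries against 3 cannot go below 0.1.

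The ratio within each number shows which libraries carry the positive Log2FC. Within number 1, 4 of the 9 hosts were higher in shOSGEP and the median log2 ratio was -0.12. Within number 2, 9 of 9 were higher with a median of 1.60, and within number 3, 9 of 9 with a median of 0.36. The shares of all tested genes above 0 were 46.7%, 52.4% and 48.3%, and their medians -0.03, 0.11 and -0.01. In 4 hosts (Gas5, Snhg1, Snhg5 and Snhg12) the ratio was above 0 within all 3 numbers, as it was in 17.6% of all genes.

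The libraries also differed by base composition and transcript length. The hosts are short (mean transcript length 443 to 973 bases) and mostly poor in G and C, from 40.9% in Snhg6 to 51.0% in Snhg15. The trend of counts with GC content and length, fitted over all genes, placed Gas5, Snhg1, Snhg3, Snhg5 and Snhg6, the hosts of lowest GC content, below their own mean in shCtr replicate 2, at -1.38 (Snhg1) to -0.81 (Snhg5) on the log2 scale. For the pair numbered 2 this trend came to 1.25 to 1.57 of the log2 ratio in these 5 hosts and to between -0.23 and 0.47 in the other four. After subtracting it, the ratio within number 2 was 1.20 for Gas5, 1.86 for Snhg1, 0.99 for Snhg5 and 1.58 for Snhg6, and that of Snhg3 turned to -1.30. The corrected ratios of number 2 were above 0 in 8 hosts (median 1.20), those of number 3 in 9 (median 0.28) and those of number 1 in 5 (median 0.02). Among all genes the corrected medians were -0.07, -0.03 and -0.04 in that order.

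**Figure D2:**
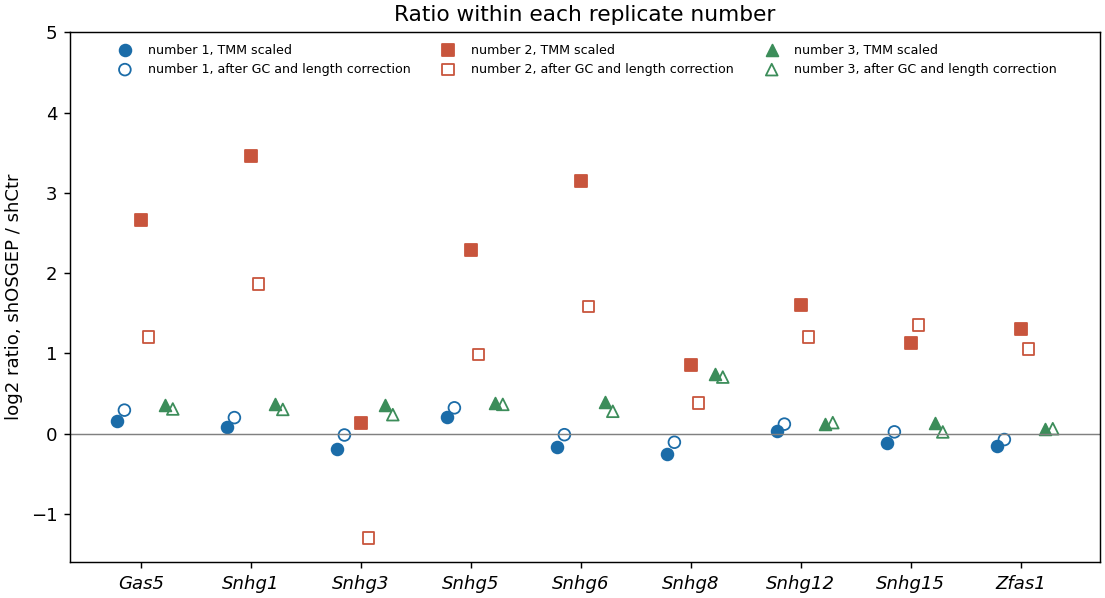
Log2 ratio of the shOSGEP to the shCtr library of the same replicate number for each host, filled symbols after TMM scaling and open symbols after subtracting the trend with GC content and transcript length. Filled squares (number 2) reach 3.46, and open squares lie between -1.30 and 1.86, whereas circles (number 1) and triangles (number 3) stay between -0.26 and 0.74.

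The host median depended on the libraries in the fit and on the weighting of libraries. Without both libraries numbered 2 the median Log2FC of the hosts was 0.04 with 6 of 9 above 0, and without both numbered 1 it was 1.11 with 9 of 9. Leaving out shCtr replicate 1 alone gave a median of 1.35, and then 4 hosts passed the study's threshold, against 3.50% of all genes under that setting. These were Gas5 (Log2FC 2.21, unadjusted p = 0.0144), Snhg1 (2.41, 0.0174), Snhg6 (2.03, 0.0348) and Snhg5 (2.21, 0.0405), all unadjusted p-values of edgeR's quasi-likelihood test, and 0 passed an adjusted p under 0.05. Leaving out shCtr replicate 3 lowered the median to 0.16. limma-voom with quality weights gave a median of 0.76, and 0.03 when the replicate block was added.

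**Figure D3:**
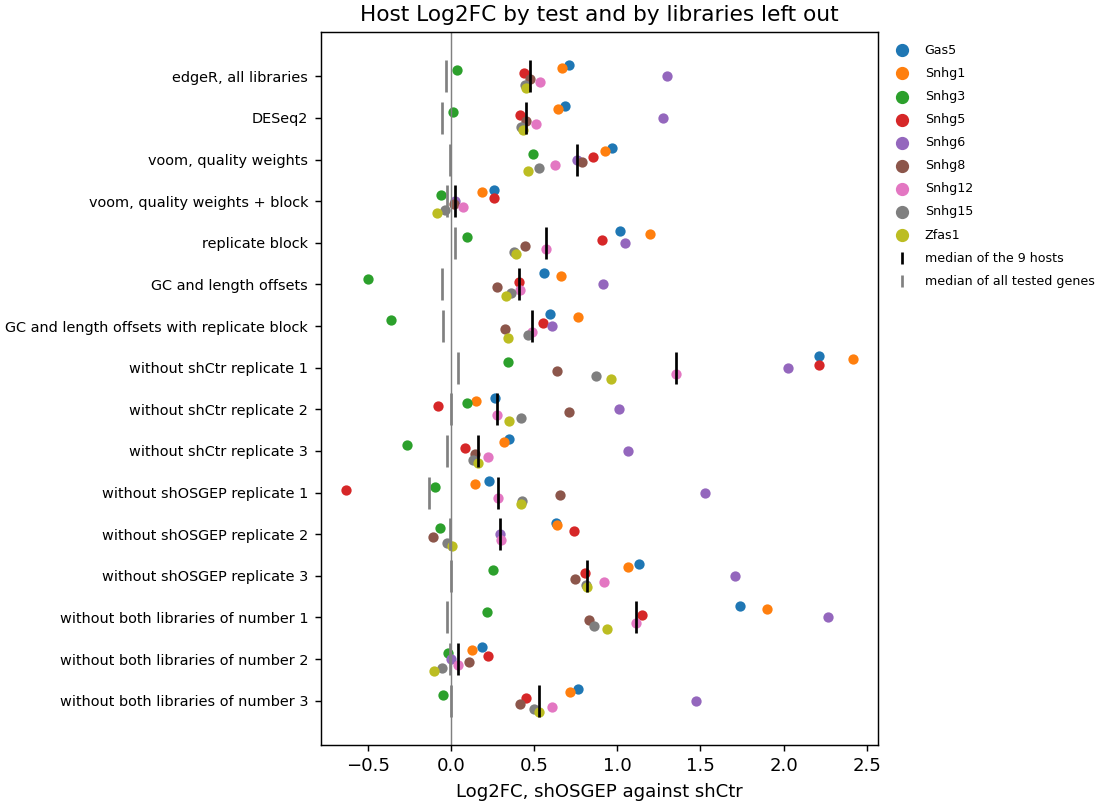
Log2FC of each host under other tests, corrections and sets of libraries, with a black bar at the median of the 9 hosts and a grey bar at the median of all tested genes. The host median runs from 0.03 (voom with quality weights and block) to 1.35 (without shCtr replicate 1), and the grey bars stay between -0.13 and 0.04.

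Levels between hosts were compared as CPM per kilobase of mean transcript length. In shCtr the order was Gas5 (110 ± 123, SD, n = 3), Snhg15 (40.5 ± 20.1), Snhg1 (31.3 ± 38.4), Snhg8 (29.8 ± 13.3), Zfas1 (29.2 ± 15.6), Snhg6 (27.2 ± 18.8), Snhg3 (16.3 ± 6.95), Snhg5 (15.6 ± 19.3) and Snhg12 (11.9 ± 8.94). No 2 neighbours in this order differed by more than the larger of their SDs. In shOSGEP the order began with Gas5 (180 ± 112), Snhg6 (67.0 ± 59.3) and Snhg15 (55.1 ± 31.5) and ended with Snhg12 (17.2 ± 9.16) and Snhg3 (16.7 ± 4.76). Gas5 was the most abundant host per length in 5 libraries, but not in shCtr replicate 2, where Snhg15 (39.4) and Snhg8 (38.8) stood above it (31.6).

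The snoRNAs themselves are not read by this assay. All 33 annotated snoRNA genes inside the 9 hosts had a row in the table, of which 28 were at 0 counts in every library and 0 passed the filter. Together they held 56 counts, 33 of them on Snora73b, against 39873 counts on the hosts. A polyA library misses these short RNAs, so the split between spliced host and released snoRNA could not be measured.

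Genes next to the hosts were read for comparison. Slc3a2, the heavy chain of amino acid transporters and a target of ATF4, lies 106 bases from Snhg1 on the opposite strand and gave 184, 558 and 225 CPM in shCtr against 330, 397 and 331 CPM in shOSGEP. Its log2 ratio was 0.84, -0.49 and 0.55 within numbers 1, 2 and 3, where Snhg1 had 0.08, 3.46 and 0.37. Zbtb37, a zinc finger gene that overlaps Gas5 on the opposite strand, gave 33.1, 1.38 and 17.6 CPM in shCtr against 37.5, 5.08 and 17.9 CPM in shOSGEP. Znfx1, which overlaps Zfas1 on the opposite strand, had a Log2FC of 0.04 (SE 0.410). Counting by strand was not stated, and the library steps in the study's methods name none that keeps the strand. Reads of these pairs may therefore be mixed. For the other hosts the nearest tested protein-coding gene read outward from the start or overlapping was Rcc1 (Log2FC -0.68), Zfp949 (0.35), Cspp1 (0.28), Tram1l1 (0.44), Gmeb1 (-0.21) and Ccm2 (-0.45), with Tram1l1 as far as 812451 bases from Snhg8. None of the 9 neighbours passed an adjusted p under 0.05 in edgeR's test, and their smallest unadjusted p was 0.192 (Rcc1).

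Other non-coding snoRNA hosts did not pass the tests either. Of 12 listed, 7 gave 8 tested rows (Snhg4 has 2), with 5 above and 3 below 0, a median Log2FC of 0.28, and 0 past the study's threshold. The smallest unadjusted p-values belonged to Snhg10 (Log2FC -0.57, SE 0.755), Snhg4 (0.58, SE 1.21) and Dancr (-0.33, SE 0.686). Protein-coding hosts, 226 tested of 277 with an annotated snoRNA gene inside, had 101 above and 125 below 0 with a median of -0.03. The study's threshold was passed by 3 of them, Robo2, Jazf1 and Negr1, all higher in shOSGEP, against 1.59% of all genes in that direction. Robo2, an axon guidance receptor, is a gene of low count, with 0.170, 0 and 0.277 CPM in shCtr and 2.05, 5.77 and 0.594 CPM in shOSGEP. With GC and length offsets the median Log2FC was 0.25 for the other non-coding hosts and -0.13 for the protein-coding hosts.

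Cytosolic ribosomal protein genes, whose mRNAs share the TOP start with many hosts, lay on the other side of 0. Of 80 tested, 20 were above and 60 below 0, with a median Log2FC of -0.34, and 0 passed the study's threshold. Their median log2 ratio within numbers 1, 2 and 3 was -0.31, -0.54 and 0.11, beside -0.12, 1.60 and 0.36 for the 9 hosts. Their median Log2FC was -0.07 without both libraries numbered 2, beside 0.04 for the hosts. With GC and length offsets it was -0.13, beside 0.41 for the hosts. These genes too were read from the same 6 libraries, so their shared sign is not a set of independent observations. Rps3 had the smallest unadjusted p (0.213), with a Log2FC of -0.87 (SE 0.649), followed by Rps24 (0.79, SE 0.612) and Rpl15 (-0.78, SE 0.640).

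The machinery of NMD was read from 21 factors. None passed an adjusted p under 0.05 or the study's threshold in edgeR's test, 7 were above and 14 below 0, and the median Log2FC was -0.29. Upf1, the central helicase, gave 85.1, 131 and 142 CPM in shCtr against 79.6, 51.5 and 125 CPM in shOSGEP (Log2FC -0.48, SE 0.460). The smallest unadjusted p-values of edgeR's test were those of Smg5 (Log2FC -1.15, SE 0.587), an adaptor of the decay step, Eif4a3 (-1.03, SE 0.606), the anchor of the exon junction complex, and Smg9 (-1.05, SE 0.621), a regulator of SMG1, and the adjusted p was 1.00 for each. The gap in Smg5 was widest within number 2, with 439 CPM in shCtr and 75.5 CPM in shOSGEP, beside 119 and 90.4 CPM in number 1 and 186 and 169 CPM in number 3. Without both libraries numbered 2 the list had 5 above and 16 below 0, with a median of -0.15. With GC and length offsets it had 3 above and 18 below 0, with a median of -0.38.

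Messenger RNAs known to be NMD-sensitive divided. Of 16 tested, 7 were above and 9 below 0 with a median of -0.09, and 3 passed the study's threshold, all higher in shOSGEP (1.59% of all genes). Without both libraries numbered 2 the count was also 3, with 5 above and 10 below 0 of the 15 then tested. With GC and length offsets the median was -0.27. The threshold was then passed by 4 higher and 1 lower in shOSGEP, against 4.95% of all genes in either direction. Gadd45a, a growth arrest and DNA damage gene, gave 6.12, 2.56 and 3.74 CPM in shCtr against 14.7, 108 and 7.76 CPM in shOSGEP (Log2FC 3.39, SE 1.01). Atf4, which encodes the effector of the integrated stress response, stood at 280, 245 and 263 CPM and at 489, 1210 and 481 CPM, and its target Ddit3 at 32.4, 26.7 and 18.0 CPM and at 55.5, 178 and 40.4 CPM. In these 3 genes the groups did not overlap and the ratio was above 0 within every number. The same held for Atf3, with 9.09, 10.7 and 9.50 CPM in shCtr against 12.7, 43.9 and 12.8 CPM in shOSGEP. The groups overlapped in Gadd45g (Log2FC 1.24), Gadd45b (0.26) and Tbl2 (-0.59), and in the 9 hosts. Atf4, Ddit3 and Gadd45a are also induced in the integrated stress response, and the adjusted p was 1.00 for each of them by edgeR's test. The splicing factor genes of the list, which have NMD-inducing exons, had a Log2FC between -0.49 (Srsf2) and 0.44 (Ptbp2). The counts are totals for each gene, so transcripts with and without such an exon were not told apart. The difference between these genes and the stress genes was not tested.

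**Figure D4:**
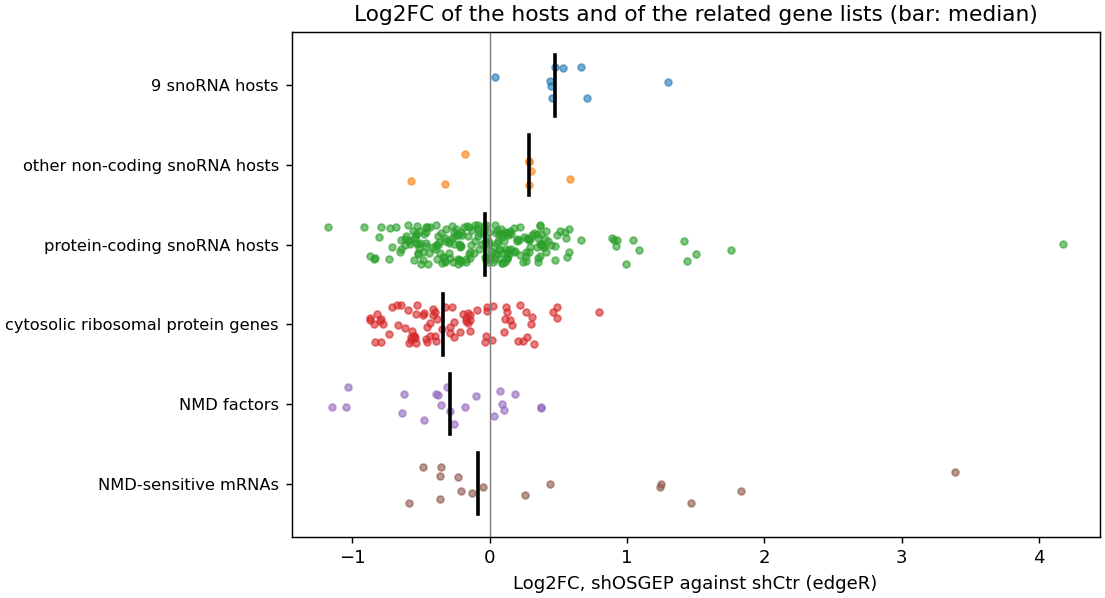
Log2FC (shOSGEP against shCtr, edgeR) of the 9 snoRNA hosts and of the related gene lists, with each point a tested gene and a black bar at the list's median. The hosts have a median of 0.48, the ribosomal protein genes of -0.34, the NMD factors of -0.29 and the NMD-sensitive mRNAs of -0.09, with Gadd45a at 3.39.

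The pattern of the hosts over the 6 libraries, taken as the median of their centred log2 CPM, was 0.61, -0.72 and -0.98 in shCtr and 0.45, 0.94 and -0.59 in shOSGEP. Hosts differed in how closely they followed it, with a root mean square difference of 0.212 for Zfas1, 0.235 for Snhg12 and 0.284 for Snhg15, and of 0.927 for Snhg1 and 1.05 for Snhg5. Of 10969 genes compared, Rbis (0.165), B4galt4 (0.203), Gabbr1 (0.231), Ccdc59 (0.246) and Mrgbp (0.254) came closest to it. Rbis, which encodes a ribosome biogenesis factor, gave 41.0, 14.9 and 16.7 CPM in shCtr against 37.0, 49.8 and 21.3 CPM in shOSGEP. Its groups overlapped, and both libraries numbered 1 and shOSGEP replicate 2 were its highest, a likeness for which it was chosen.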

How the data were processed

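Total RNA of 6 B16F10 libraries (3 shCtr, 3 shOSGEP) was polyA-selected and sequenced in paired reads. Per the methods of the study, the authors trimmed reads with TrimGalore, aligned them to GRCm38 with STAR 2.6.1d and quantified genes with Salmon 1.4.0. The deposited values were Salmon's estimated counts for each gene, rounded to integers and not normalized, and the integers were used here as they stand. Salmon divides reads shared by overlapping or similar genes by likelihood. Whether strand was used in counting was not stated, and the library steps in the study's methods name none that keeps the strand. The annotation release was not given in the sources used here. Positions, transcripts and GC contents came from GENCODE M21 (GRCm38), which held 99.38% of the identifiers.

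Groups and replicate numbers came from the labels. Genes were kept by filterByExpr (minimum count 10, minimum total 15) and scaled by TMM. They were compared with edgeR's quasi-likelihood test (edgeR 4.0.16, R 4.3.3, two-sided, Benjamini-Hochberg adjustment over all tested genes), tested on simulated data first. The simulated counts varied less between replicates than these libraries, whose common biological coefficient of variation was 0.5665. The simulation therefore does not show how the test performs at this spread. CPM values are TMM-scaled, and 3 counts, the floor of detection, equal 0.116 to 0.147 CPM, which covers counting error only. Alternatives were DESeq2 1.42.0, limma-voom 3.58.1 with quality weights, other scalings and filters, the replicate number as a block, spline offsets (5 degrees of freedom) for GC content and length, and leaving out libraries. Deviations of same-numbered libraries from their group means correlated at 0.811, 0.557 and 0.196 across genes. These were above the limit of 0.1, so the numbers were taken as pairing the libraries. Pairs of different numbers also passed this limit, at 0.491 (shCtr replicate 3 with shOSGEP replicate 1) and 0.138 (shCtr replicate 2 with shOSGEP replicate 3). What a number marks was not stated.

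Named genes were the 9 hosts, Osgep, the neighbour of each host, up to 3 genes of the smallest p per list and the 5 genes of mean count 50 or more whose profile was closest to the hosts; genes named beyond these were chosen after their values were seen. The hosts and lists were chosen with earlier results of these data known.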

Additional observations from a re-analysis of the deposited data

How the results depend on the processing

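No host passed an adjusted p under 0.05 in edgeR's test or under any of the 19 alternatives, nor at an adjusted p under 0.1. Without both libraries numbered 1, 2 hosts (Gas5 and Snhg6) passed the study's threshold, against 1.93% of all genes under that setting. Without shCtr replicate 1, 4 hosts passed it, against 3.50% of all genes. Under every other setting, the other single libraries left out included, the count was 0. The median Log2FC of 0.48 was 0.45 with DESeq2 and with RLE scaling, 0.53 at 10 counts or more in every library, and 0.62 with upper-quartile scaling, which moved the median of all genes by 0.10 (host median above it 0.55). With the replicate block it was 0.57, and the block made no host pass the adjusted or the study's threshold. With GC and length offsets it was 0.41, and 0.49 with the block added. Leaving out single libraries gave 0.16 (without shCtr replicate 3) to 1.35 (without shCtr replicate 1), with 0.28 without shCtr replicate 2, 0.28 without shOSGEP replicate 1, 0.30 without shOSGEP replicate 2 and 0.82 without shOSGEP replicate 3.

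Gas5, Snhg1, Snhg6 and Snhg12 kept a Log2FC above 0 under all 19 alternatives, with lows of 0.19, 0.13, 0.00070 and 0.044 without both libraries numbered 2. Without shOSGEP replicate 1 Gas5 was at 0.23 and Snhg1 at 0.14, and without shCtr replicate 1 they were at 2.21 and 2.41. Under voom with quality weights and the replicate block the sign turned for Snhg3 (-0.058), Snhg15 (-0.038) and Zfas1 (-0.082). Without both libraries numbered 2 it turned for Snhg3 (-0.018), Snhg15 (-0.053) and Zfas1 (-0.10), and without both numbered 3 for Snhg3 (-0.048). Snhg3 was also at -0.50 with GC and length offsets and at -0.36 with the block added. With single libraries left out, Snhg3 ran from -0.26 to 0.34 (below 0 without shCtr replicate 3, shOSGEP replicate 1 or shOSGEP replicate 2), Snhg5 from -0.63 to 2.21 (below 0 without shOSGEP replicate 1 or shCtr replicate 2), Snhg8 from -0.11 to 0.74 and Snhg15 from -0.021 to 0.87 (both below 0 without shOSGEP replicate 2). The cause of these turns was not tested.

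Where 1 library is left out of a group of 3, the spread rests on 5 libraries. Standard errors of the host Log2FC were 0.534 to 1.02 in edgeR's fit without a block, 0.338 to 0.759 with the block, 0.222 to 0.387 with GC and length offsets and the block, and 0.145 to 0.194 in voom with quality weights and the block. A single hairpin, 3 infections per group and the unlike libraries numbered 2 limit what the comparison can show. The hosts held 39 to 4488 counts per library.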
